A study of Rattus norvegicus with 10 samples.

Results

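The endocannabinoid system of the hippocampus was examined through 9 genes: the cannabinoid receptors Cnr1 and Cnr2, the receptor-binding protein Cnrip1, the synthesis enzymes Dagla, Daglb and Napepld, and the hydrolysis enzymes Mgll, Abhd6 and Faah. The genes were named with earlier results of these data known, and their rows were then found by symbol. The RefSeq identifiers of the count matrix, which holds 32041 features (rows, each a transcript record), were matched to these symbols, and 1 row per symbol was kept, the one with the highest mean count. A row was matched for 8 of the 9 genes. Faah, the main hydrolase of anandamide, was not matched to a row by its RefSeq identifier, and no value is given for it.

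The samples were pieces of left hippocampus, labelled dorsal, with the CA3 field and dentate gyrus of 10 male Sprague-Dawley rats of 290 to 320 g, an outbred strain with no engineered allele. All 10 were operated under isoflurane after butorphanol, carried an electrode in the left lateral amygdala and lived 1 to a cage from then on. The 5 sham rats (rats 1 to 5) had the electrode without current. The 5 stimulated rats (rats 6 to 10) received, 2 weeks after surgery, pulse trains through it (400 µA, 60 Hz) over 30 min, longer where no status epilepticus followed. Status epilepticus, a seizure that does not stop by itself, was ended with diazepam, and tissue was taken 3 months later, after video EEG for spontaneous seizures. The sham rats were of matched age and no diazepam is described for them, so the effects of stimulation, status epilepticus, diazepam and later spontaneous seizures cannot be told apart. Each sample was 1 rat, and polyadenylated RNA was read in single reads of 36 cycles.

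Endocannabinoids are lipids made on demand in the postsynaptic membrane, from where they act backward on the nerve terminal. The most abundant in brain, 2-arachidonoylglycerol (2-AG), is released by diacylglycerol lipases, activates the CB1 receptor on GABA and glutamate terminals, lowers transmitter release, and is then broken down by monoacylglycerol lipase and ABHD6. Anandamide is formed in part by NAPE-PLD and removed by FAAH. In the hippocampus the CB1 receptor is densest on terminals of cholecystokinin basket cells, and on excitatory terminals it is known as a brake on seizures.

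None of the 8 genes passed the test between stimulated and sham rats at an adjusted p-value under 0.05 (edgeR's quasi-likelihood test with Benjamini-Hochberg adjustment over 22447 tested features). Of all tested features, 0% (0 of 22447) passed, while 2214 had an unadjusted p-value under 0.05. By the likelihood ratio test 119 features passed and by DESeq2 33, with 0 of the 8 genes among them. Levels are given as CPM, the counts of a gene per 1000000 counts of its library. For the receptor Cnr1 and the synthesis enzyme Dagla the mean of the stimulated rats lay within 1 SD of the sham mean. The values of Abhd6, Mgll and Daglb were lower in some stimulated rats, with means 15.1%, 13.0% and 12.3% below the sham means, and those differences did not pass. At an unadjusted p-value under 0.05, 1 of the 8 genes was counted (Abhd6, 12.5%), against 9.86% of all tested features. That count fell to 0 without sham rat 1, 3, 4 or 5 or stimulated rat 9 or 10, and without stimulated rat 7 the gene counted was Daglb. Of the 8 genes 4 had a lower and 4 a higher fitted level in stimulated rats, beside 47.8% lower and 52.2% higher among all tested features. In 0 of the 8 genes did the 5 stimulated rats lie wholly outside the sham range, as they did in 1.29% of all tested features (0.597% with stimulated rats lower). The median log2 fold change of the 8 genes was -0.004, and that of all tested features 0.012.

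**Figure D1:**
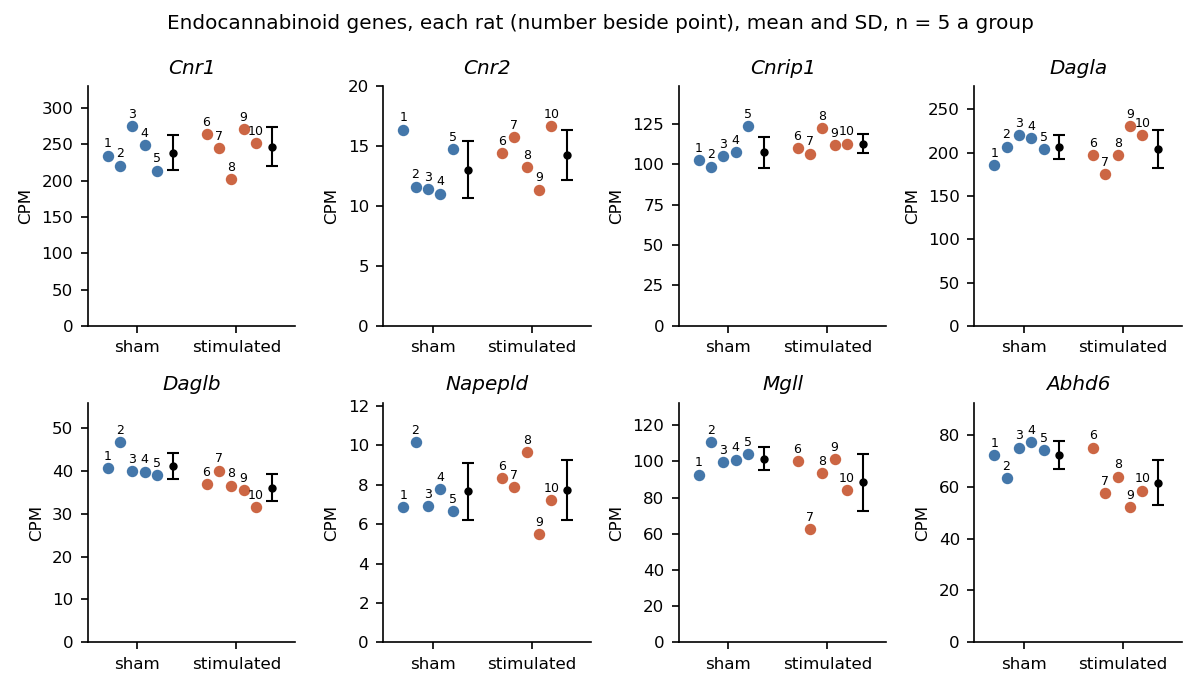
CPM (linear axis from 0) of each gene in sham rats (blue) and stimulated rats (orange); each point is 1 rat with its number, and the black point and bar beside each group are the mean and SD (n = 5). The groups overlap in all 8 panels, with the lowest Mgll value in rat 7 and the lowest Abhd6 value in rat 9.

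The upstream sequences of Mgll, Daglb and Abhd6 are shown because these are the genes with the lowest fitted differences between the groups. They are the 250 bases before the annotated start in RefSeq's GRCr8 assembly, 5′ to 3′ on the strand of the gene, and not in the build the authors aligned to. Capitals mark GC boxes (GGGCGG, bound by Sp-family factors) and the core of the cyclic AMP response element (TGACG), each searched on both strands.
Mgll (chr4:122749186-122749435, plus strand): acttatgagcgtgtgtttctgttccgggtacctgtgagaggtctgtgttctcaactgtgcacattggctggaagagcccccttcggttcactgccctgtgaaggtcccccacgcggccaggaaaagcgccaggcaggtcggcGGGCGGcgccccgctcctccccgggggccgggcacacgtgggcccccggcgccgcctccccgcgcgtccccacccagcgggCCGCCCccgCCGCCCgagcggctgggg
Daglb (chr12:16215759-16216008, minus strand): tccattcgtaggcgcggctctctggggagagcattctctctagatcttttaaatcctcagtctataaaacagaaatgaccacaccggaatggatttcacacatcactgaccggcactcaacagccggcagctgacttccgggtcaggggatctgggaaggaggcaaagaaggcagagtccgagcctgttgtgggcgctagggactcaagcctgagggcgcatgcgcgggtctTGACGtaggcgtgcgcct
Abhd6 (chr15:19337194-19337443, minus strand): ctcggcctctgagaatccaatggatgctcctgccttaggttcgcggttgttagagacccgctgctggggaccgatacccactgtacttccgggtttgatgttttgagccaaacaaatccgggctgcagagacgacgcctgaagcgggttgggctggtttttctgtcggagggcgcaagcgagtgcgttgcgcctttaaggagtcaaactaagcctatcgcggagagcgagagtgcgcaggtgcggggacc

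Mgll held 3 GC boxes and 26 CpG dinucleotides in this window, Daglb 1 TGACG core and 15 CpG, and Abhd6 neither motif and 20 CpG. Such traits were not particular to the genes shown. Napepld held 8 GC boxes and 29 CpG, Faah 1 GC box and 26 CpG, and Cnrip1 1 of each motif and 9 CpG. The Cnr2 windows held 0, 7 and 4 CpG, no GC box, and a TGACG core in the second. The median over 33469 windows of the same length was 5 CpG. A GC box was present in 30.5% of all such windows and a TGACG core in 18.2%. The AP-1 site (TGACTCA, both strands, bound by Fos and Jun proteins) was present in 4.05% of all windows and in 0 of the 9 windows listed for 7 of the 9 genes. These are matches of letters alone and were not set against any binding data.

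Cnr1 (NM_012784), which encodes the CB1 receptor, was counted at 234, 221, 275, 249 and 214 CPM in sham rats 1 to 5. In stimulated rats 6 to 10 it was counted at 264, 244, 202, 270.3 and 252 CPM. The highest value was in sham rat 3 and the lowest in stimulated rat 8, and the groups overlapped. Sham rats averaged 239 ± 24.5 CPM and stimulated rats 247 ± 26.8 CPM (SD, n = 5 each). Stimulated over sham, the log2 fold change was 0.05 (SE 0.096, 95% interval -0.16 to 0.25, adjusted p = 0.905), an interval that spans 0.895-fold to 1.19-fold. The spans of Cnr1, Cnrip1 and Mgll overlap those of non-coding genes in the GRCr8 reference, for Mgll a tRNA gene. Overlap of exons was not checked, and use of strand in the counting is not given in the sources used here. Whether reads of these pairs were mixed is therefore not known.

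Cnr2 encodes the CB2 receptor, known mainly from immune cells and microglia. It had 3 rows in the matrix. The rows NM_001164142 and NM_001164143 held almost the same counts in each rat, such as 283 and 281 in rat 1 and 312 and 323 in rat 10, and the first took between 48.2% and 51.4% of their sum. The third row, NM_020543, held 2 to 16 counts a rat. How reads common to several transcript records were counted is not given in the sources used here, and the 2 rows with more counts are not independent measurements. The row used, NM_001164143, was counted at 16.4, 11.6, 11.4, 11.04 and 14.8 CPM in sham rats 1 to 5 and at 14.4, 15.7, 13.2, 11.4 and 16.7 CPM in stimulated rats 6 to 10. Rats 1 and 10 were highest and the groups overlapped (log2 fold change 0.13, SE 0.150, 95% interval -0.19 to 0.45, adjusted p = 0.800). The value was 0.22 without sham rat 1 and 0.07 without stimulated rat 10. With the 3 rows summed, sham rats averaged 26.2 ± 4.68 CPM and stimulated rats 29.0 ± 4.03 CPM (SD, n = 5 each), which gave a log2 fold change of 0.15 (adjusted p = 0.752, SE 0.136).

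The 11 microglia markers summed to 471 to 571 CPM in sham rats against 504 to 734 CPM after stimulation. None of the microglia markers passed the adjusted threshold. At an unadjusted p-value under 0.05, 2 of 11 were higher, against 6.7% of all tested features. The part of the microglia markers in the values of Cnr2 was not tested.

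Cnrip1 (NM_001014232) encodes a protein that binds the C-terminal tail of the CB1 receptor. Its levels were 102, 98.3, 105, 107 and 124 CPM in sham rats 1 to 5 and 110, 106, 122, 112 and 113 CPM in stimulated rats 6 to 10. All stimulated rats lay within the range of the sham rats. Group means were 107 ± 9.67 and 113 ± 5.92 CPM (SD, n = 5 each), and the log2 fold change was 0.07 (SE 0.083, 95% interval -0.11 to 0.25, adjusted p = 0.819).

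Dagla (NM_001005886) encodes the diacylglycerol lipase that makes most of the 2-AG for synaptic signalling. Sham rats 1 to 5 had 185, 207, 221, 217 and 204 CPM. Stimulated rats 6 to 10 had 197, 175, 197, 231 and 220.1 CPM. Stimulated rat 7 was the lowest and stimulated rat 9 the highest of all 10 rats, so that the stimulated rats lay on both sides of the sham range. The means were 207 ± 13.8 and 204 ± 21.9 CPM (SD, n = 5 each), and the log2 fold change was -0.02 (SE 0.088, 95% interval -0.21 to 0.17, adjusted p = 0.959). The sign turned with library size as the scaling (0.00061), without sham rat 3 (0.0041) and without stimulated rat 7 (0.019).

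Daglb (NM_001107120), the second diacylglycerol lipase, is known for a larger role in microglia and macrophages. Its sham values were 40.6, 46.6, 39.8, 39.8 and 38.9 CPM in rats 1 to 5. In stimulated rats 6 to 10 the values were 36.9, 40.03, 36.5, 35.4 and 31.5 CPM. Stimulated rats 6, 8, 9 and 10 were below all sham rats, and rat 7 lay within the sham range. The means were 41.1 ± 3.09 and 36.1 ± 3.08 CPM (SD, n = 5 each), a log2 fold change of -0.19 (SE 0.094, 95% interval -0.39 to 0.01, unadjusted p = 0.0640, adjusted p = 0.530) that did not pass. Without stimulated rat 7 the unadjusted p-value was 0.0229 (quasi-likelihood test, adjusted p = 0.650).

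Napepld (NM_199381), which releases anandamide and related N-acylethanolamines from their membrane precursors, had the fewest reads of the matched genes, 108 to 188 counts a rat. It was counted at 6.86, 10.2, 6.91, 7.77 and 6.66 CPM in sham rats 1 to 5 and at 8.33, 7.89, 9.64, 5.51 and 7.22 CPM in stimulated rats 6 to 10. Sham rat 2 was highest and stimulated rat 9 lowest. Its log2 fold change was 0.01 (SE 0.174, 95% interval -0.36 to 0.39, adjusted p = 0.990), the widest interval of the 8 genes, and its sign turned in 6 of the 10 fits that left out 1 rat, with -0.09 without rat 8. Counting error alone gives a coefficient of variation of about 8.23% at this depth, and the coefficients of variation were 18.9% in sham and 19.7% in stimulated rats.

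Mgll (NM_138502) encodes monoacylglycerol lipase, the enzyme that clears most 2-AG in brain, in nerve terminals and astrocytes. It was counted at 92.7, 110.4, 99.6, 101 and 104 CPM in sham rats 1 to 5. In stimulated rats 6 to 10 it was counted at 100.2, 62.7, 93.5, 101 and 83.9 CPM. Rats 7 and 10 were below all sham rats, with rat 7 0.69 below the sham mean on the log2 CPM scale, and rats 6, 8 and 9 were within the sham range. Sham rats averaged 102 ± 6.44 CPM and stimulated rats 88.3 ± 15.9 CPM (SD, n = 5 each). On the log2 scale the fold change was -0.20 (SE 0.120, 95% interval -0.46 to 0.06, unadjusted p = 0.117, adjusted p = 0.594). Without rat 7 it was -0.11 (SE 0.086, adjusted p = 0.816), a move of more than 1.5 times.

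Abhd6 (NM_001007680) encodes a serine hydrolase of the postsynaptic side that degrades 2-AG near its site of synthesis. Sham rats 1 to 5 had 72.02, 63.3, 75.0, 77.0 and 74.1 CPM. Stimulated rats 6 to 10 had 75.02, 57.6, 63.9, 52.1 and 58.4 CPM. Rats 7, 9 and 10 were below all sham rats, rat 8 was just above the lowest sham rat, and rat 6 lay above the sham mean. The means were 72.3 ± 5.34 and 61.4 ± 8.67 CPM (SD, n = 5 each). This gave a log2 fold change of -0.24 (SE 0.104, 95% interval -0.46 to -0.01, unadjusted p = 0.0405, adjusted p = 0.478), the lowest of the 8 genes, and did not pass the adjusted threshold. When each rat was left out in turn, the unadjusted p-value stayed under 0.05 in 3 of 10 fits, those without rats 2, 6 and 8, and the log2 fold change ran from -0.33 (without rat 6) to -0.18 (without rat 9).

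**Figure D2:**
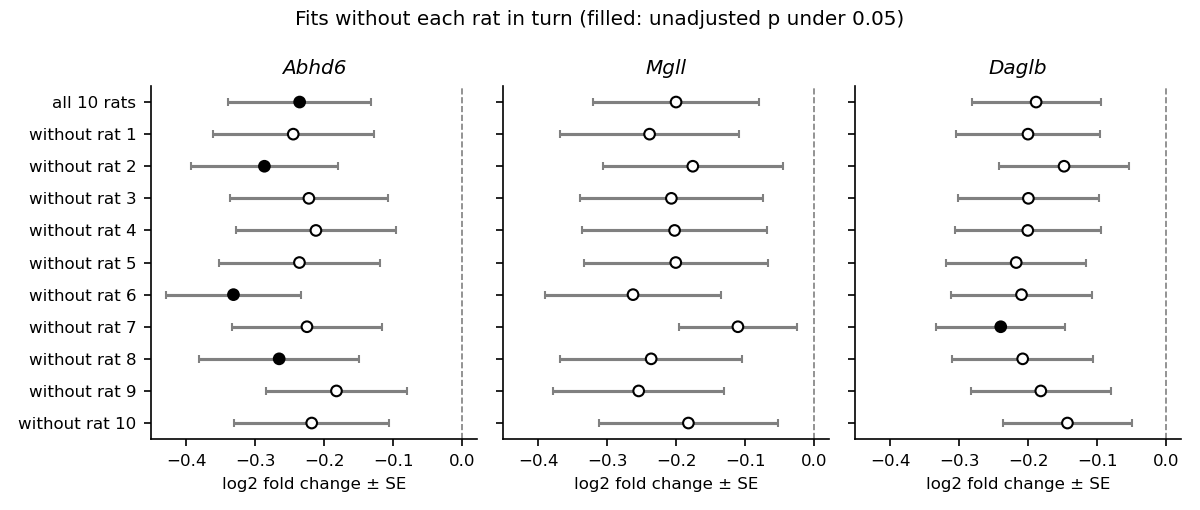
Log2 fold change ± SE (stimulated over sham) of Abhd6, Mgll and Daglb with all 10 rats and without each rat in turn; filled points have an unadjusted p-value under 0.05 and open points do not. All points lie below 0, and Mgll moves from -0.20 to -0.11 without rat 7.

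Other transcripts moved in the same rats. Of the 9 astrocyte markers 4 were higher at an unadjusted p-value under 0.05, against 6.7% of all tested features. All 9 summed to 3570 to 4051 CPM in sham rats and to 3637, 8868, 3744, 4852 and 7749 CPM in stimulated rats 6 to 10. Gfap, the filament protein of reactive astrocytes, gave most of this, with 6469 CPM in rat 7 and 5396 CPM in rat 10. The astrocyte markers were not uniformly higher in rat 7. There Gfap, Aqp4, Slc1a2 and Slc1a3 were above all sham rats and S100b was within their range. Aldh1l1 (16.4 CPM), Gjb6 (15.1 CPM), Gja1 (271 CPM) and Fgfr3 (54.5 CPM) were below all sham rats in rat 7. Fos, a marker of recent neuronal activity, was counted at 3.26 to 5.32 CPM in sham rats and at 5.61, 106, 5.24, 50.3 and 61.7 CPM in stimulated rats 6 to 10. Arc, a dendritic activity gene, was counted at 41.0 to 59.1 CPM in sham rats and at 68.3, 188, 44.4, 1118 and 208 CPM in the stimulated rats. At an unadjusted p-value under 0.05, 10 of 10 immediate early genes were higher, against 6.7% of all tested features, with none past the adjusted threshold. That list was chosen with earlier results of these data known, so the count is not independent of them. The groups overlapped in each of these genes. Npas4, for 1, was at 11.9 CPM in rat 10 and at 0.37 to 1.31 CPM in the other stimulated rats. Rats 7, 9 and 10, in which Abhd6 was below the sham range, were thus also the stimulated rats with the highest Fos and Arc counts. The 5 matched dentate granule markers summed to 303 to 391 CPM in sham rats and to 300.2, 207, 292, 413 and 356 CPM in stimulated rats 6 to 10. In rat 7, the rat with the lowest Mgll, C1ql2 (44.8 CPM) and C1ql3 (47.5 CPM) were below all sham rats, Pdzd2 (52.1 CPM) and Stxbp6 (36.0 CPM) above all of them, and Prox1 within their range. The 8 oligodendrocyte markers summed to 2207 CPM in that rat against 2686 to 3874 CPM in sham rats. The part of these transcripts in the values of Mgll and Abhd6 was not tested. In bulk tissue, fewer cells of a type and less RNA per cell cannot be told apart.

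**Figure D3:**
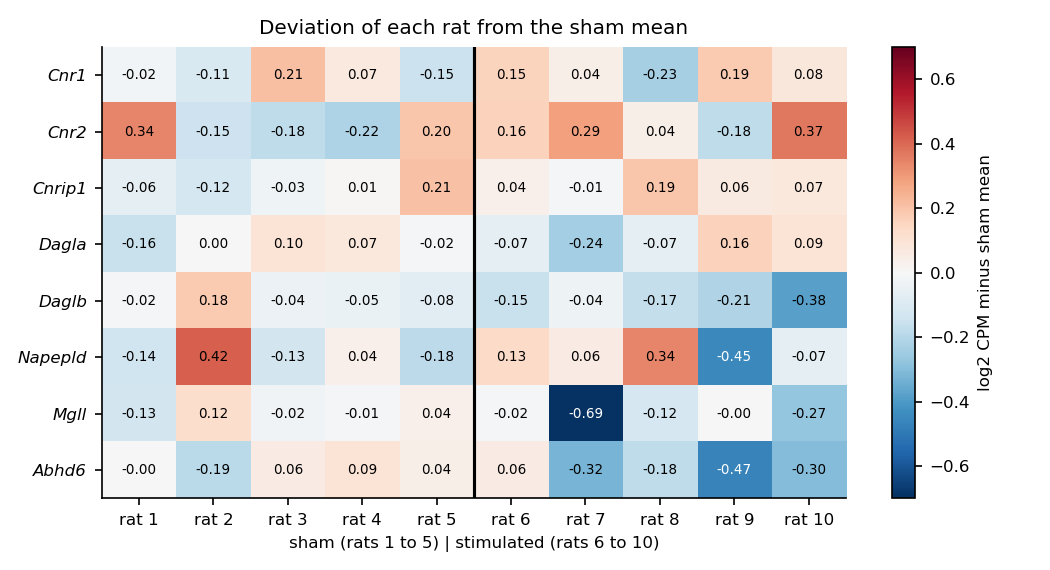
Log2 CPM of each gene in each rat minus the mean of the sham rats (colour and number; blue below, red above), with a line between sham rats 1 to 5 and stimulated rats 6 to 10. The lowest value is Mgll in rat 7 at -0.69, and Abhd6 is at -0.32, -0.47 and -0.30 in rats 7, 9 and 10.

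Markers of dentate granule cells and CA3 pyramidal cells were counted in all rats, among them C1ql2 at 140.5 to 165 CPM and Grik4 at 138 to 160.3 CPM in sham rats. CA1 markers, which the labelled CA3 and dentate tissue need not hold, were counted as well, and the 5 of them summed to 186 to 305 CPM in sham rats and to 365, 206, 206, 217 and 109.5 CPM in stimulated rats 6 to 10. The choroid plexus markers summed to 3.43 to 17.9 CPM in sham rats against 7.24 to 34.5 CPM after stimulation. At an unadjusted p-value under 0.05, 6.7% of all tested features were higher and 3.16% lower. At that threshold were 0 of 8 neuronal, 0 of 5 granule cell, 0 of 5 CA1 and 0 of 8 oligodendrocyte markers. Counted, all higher, were 1 of 4 CA3, 2 of 4 mossy cell, 3 of 6 endothelial and 1 of 5 choroid plexus markers. The 2 mossy cell markers were Calcrl and Csf2rb, and Csf2rb had 35.1 CPM in rat 7 and 1.04 to 4.90 CPM in the other stimulated rats. Of the other mossy cell markers, Calb2 had a log2 fold change of -0.34 and Drd2 of 0.01. The part of all these markers in the members' values was not tested. Sham libraries held 13552309 to 24086059 aligned counts and stimulated libraries 15586870 to 21642792, with 32.8% to 37.1% and 32.01% to 45.1% of reads not aligned. Stimulated rats 8, 9 and 10 were above all sham rats in that share, at 41.4%, 42.9% and 45.1%, and were also the rats with the lowest levels of Daglb and of Gnai1, and the part of alignment in these values was not tested. Counting error of the 8 genes was 1.45% to 8.23% of the mean count, and the coefficients of variation between rats were 5.27% to 19.7%. Rats differed by more than counting error for each of the genes in both groups.

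**Figure D4:**
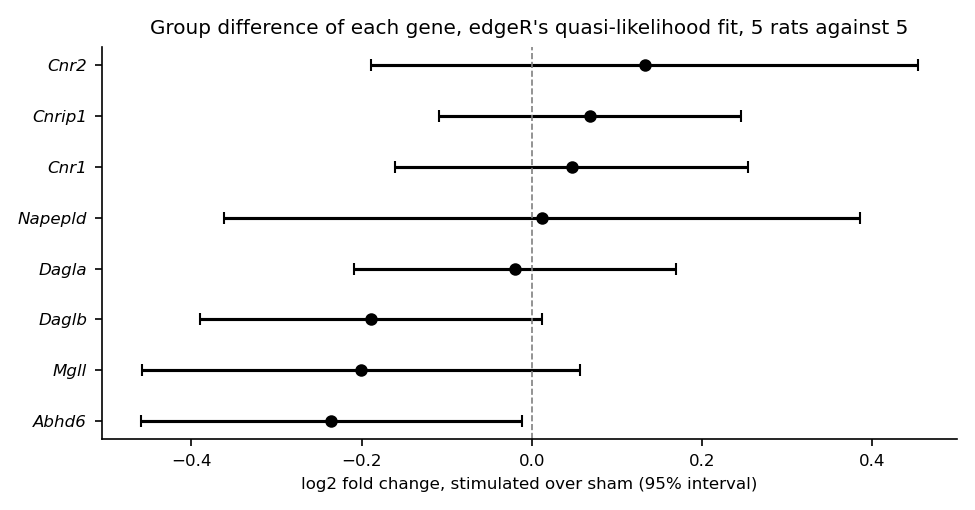
Log2 fold change, stimulated over sham, of the 8 genes (points) with 95% intervals (bars) from the quasi-likelihood fit of 5 against 5 rats; the dashed line marks no difference. The interval of Abhd6, -0.46 to -0.01, is the one that leaves out 0 before adjustment over all features.

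Genes of cholecystokinin interneurons and of GABA synthesis, 8 in all, were looked at too, and they do not mark the cells with CB1 receptor alone. None passed, with 0 of 8 at an unadjusted p-value under 0.05 against 9.86% of all tested features. These 8 genes summed to 435 to 518 CPM in sham rats against 414 to 481 CPM after stimulation, most of it from Cck and Gad1. By fitted level 5 were lower and 3 higher, from log2 fold changes of -0.38 (Slc17a8) and -0.36 (Htr3a) to 0.17 (Vip). Cck averaged 178 ± 25.9 CPM in sham rats and 169 ± 21.2 CPM after stimulation (SD, n = 5 each; log2 fold change -0.08, adjusted p = 0.866).

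The genes whose log2 CPM ran most like that of Cnr1 over the 10 rats, of 9203 symbols compared, were Gfpt1 (Pearson r of 0.93), Gad2 (0.91), Ndst1 (0.91), Xpr1 (0.87) and Usp6nl (0.87). Gad2, which makes GABA at synapses, was lowest in stimulated rat 8 at 23.2 CPM and highest in sham rat 3 at 36.2 CPM, the same rats as for Cnr1. For Dagla the most alike were Id3 (0.91), Pcnx3 (0.90) and Pitpnm2 (0.90), and for Mgll they were Camkk1 (0.97), Tmem51 (0.96) and Nptx1 (0.96). These were picked as the highest of many and are a description of these 10 rats. The rats hold both groups and differ in cell markers as given above. From the sham mean on the log2 CPM scale, Mgll was at -0.69 in rat 7 and -0.27 in rat 10. The other rats lay from -0.13 to 0.12, so the r values of Mgll depend most on rats 7 and 10.

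The other genes of the pathway were taken from a list of 61, of which 58 were matched to a row and 53 had enough counts to be tested. None of the 53 passed at an adjusted p-value under 0.05 in the quasi-likelihood test. At an unadjusted p-value under 0.05 there were 4 (7.55%, against 9.86% of all tested features), 3 higher (6.7% of all features) and 1 lower (3.16% of all features) in stimulated rats. Without rat 6 there were 8, while such features rose from 2214 to 3145, and without rat 8 there were 13, with 3034 such features. The median log2 fold change of the list was -0.017, against 0.012 over all tested features.

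Ptgs2 (NM_017232) encodes cyclooxygenase-2, which oxidizes 2-AG and anandamide beside arachidonic acid and is induced by neuronal activity. It was counted at 14.3, 17.7, 15.6, 16.2 and 14.4 CPM in sham rats 1 to 5 and at 14.3, 104.5, 11.8, 227 and 90.4 CPM in stimulated rats 6 to 10. Rats 7, 9 and 10 stood far above the sham rats, and rats 6 and 8 were below the lowest sham value. Its log2 fold change was 2.52 (SE 0.623, 95% interval 1.18 to 3.86, adjusted p = 0.376), and 1.82 without rat 9 (adjusted p = 0.495). The likelihood ratio test, run as an alternative, called Ptgs2 (adjusted p = 0.0163). The study, by its own edgeR test and with fewer stimulated rats in its methods, lists Ptgs2, Rgs4, Fos and Arc as upregulated in this model. Its list is cut at an unadjusted p-value, unlike the adjusted threshold used here.

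Rgs4 (NM_017214), which shortens signalling of Gi and Gq proteins, was counted at 23.6 to 36.7 CPM in sham rats and at 41.1, 172, 30.7, 169.5 and 45.4 CPM in stimulated rats 6 to 10. Rats 7 and 9 were far above the rest, and the fitted log2 fold change was 1.52 (SE 0.432; adjusted p = 0.380). Homer1 (NM_031707), which encodes a protein that binds group I metabotropic glutamate receptors, was counted at 40.6 to 51.2 CPM in sham rats. In stimulated rats 6 to 10 the counts of Homer1 were 45.5, 121.5, 43.6, 109 and 58.2 CPM. Its log2 fold change was 0.75 (SE 0.257, adjusted p = 0.411), and it was above all sham rats in rats 7, 9 and 10. Without rat 7 the fitted value of Homer1 was 0.49.

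Gnai1 (NM_013145), an inhibitory G protein subunit through which the CB1 receptor signals, was the lower one of the 4. It was counted at 111, 98.2, 115, 111 and 105 CPM in sham rats 1 to 5. In stimulated rats 6 to 10 it was counted at 112, 89.5, 83.01, 86.9 and 72.9 CPM. Rats 7 to 10 were below all sham rats and rat 6 lay within their range. Fitted, the log2 fold change was -0.28 (SE 0.107, 95% interval -0.51 to -0.05, adjusted p = 0.427).

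**Figure D5:**
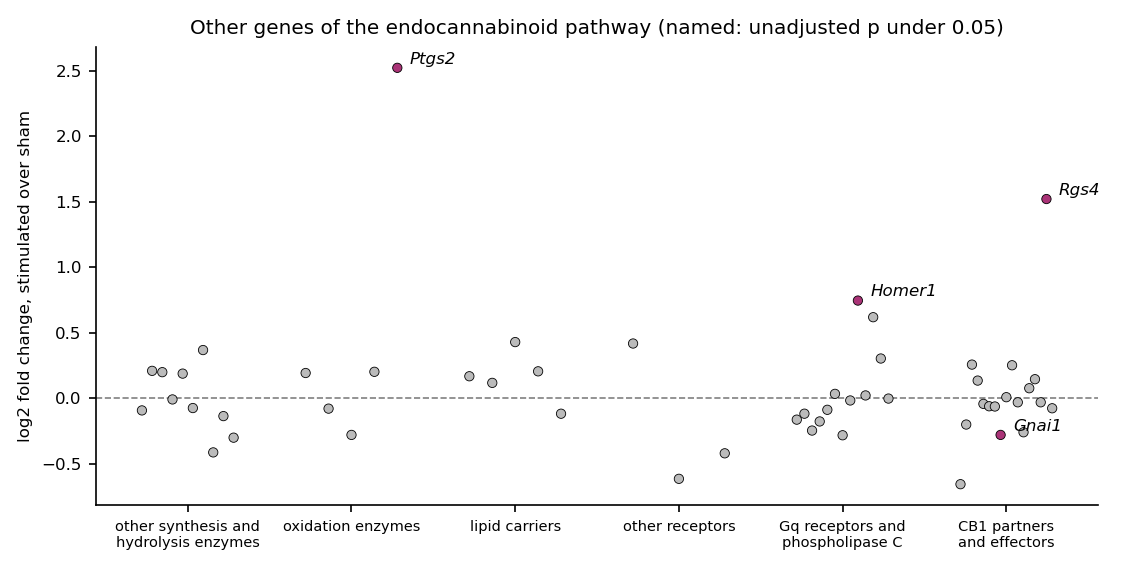
Log2 fold change, stimulated over sham, of the 53 tested genes of the pathway list, 1 point a gene, in 6 groups by role; named, coloured points have an unadjusted p-value under 0.05 and the rest are grey. Ptgs2 at 2.52 and Rgs4 at 1.52 stand above the others, which lie between -0.66 and 0.75.

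By role, at the unadjusted threshold 1 of 5 oxidation enzymes (Ptgs2) was counted. Of 17 partners and effectors of the CB1 receptor 2 were (Rgs4 and Gnai1). Of 13 genes for Gq-coupled receptors, phospholipase C and proteins that act with them 1 was (Homer1). None of 10 other synthesis and hydrolysis enzymes, 5 lipid carriers or 3 other lipid receptors was. Over all tested features the share was 9.86%, and no list was tested against it. Abhd12, a further 2-AG hydrolase named here after its values were seen, averaged 212 ± 7.85 CPM in sham rats and 198 ± 28.2 CPM after stimulation (SD, n = 5 each; log2 fold change -0.09, adjusted p = 0.776). Of the stimulated rats 3 lay below and 2 above all sham rats.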

How the data were processed

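Messenger RNA of 10 rats was measured. The authors deposited a table of unnormalized read counts, with a row for each RefSeq transcript record and a column for each rat. Per the labels and the methods of the study, the authors aligned single reads to the rn4 build with BWA and counted them with their own script against an Ensembl annotation, although the rows carry RefSeq identifiers. The count of reads not aligned was set aside. By transcript identifier, the RefSeq table of GRCr8 gave symbols for 17371 of 32041 features. Groups came from the treatment label. Rats 1 to 5 are sham replicates 1 to 5 and rats 6 to 10 stimulated replicates 1 to 5. The methods count fewer stimulated rats for this assay than the labels do, so all 10 were used and each was left out in turn.

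Features with a summed count under 46, the 30th percentile, were left out as in the study, which left 22447. The 2 groups entered edgeR 4.0.16 (R 4.3.3) without covariates, were scaled by trimmed means (TMM), and were tested by quasi-likelihood, with p-values adjusted after Benjamini and Hochberg over these features. Every p-value is from this test unless another is named. CPM used TMM-scaled library sizes, log2 CPM used a prior count of 2, and intervals use the t distribution of the fit. Alternatives were RLE factors, library size alone, other filters, the likelihood ratio test, DESeq2 1.42.0, limma-voom (limma 3.58.1), adjusted deviances and summed rows. The test was checked on simulated counts with the same spread for all features and with larger changes than those of the members. That check does not cover differences as small as theirs or rats that stand apart within a group. The members and gene lists were chosen with earlier results of these data known. All 9 members are named, with the pathway genes at an unadjusted p-value under 0.05, the symbols most like Cnr1 (5), Dagla (3) and Mgll (3) at a mean of at least 5 CPM, and Fos and Arc. No transcript lengths of the build used were at hand, so levels are not compared between genes.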

Additional observations from a re-analysis of the deposited data

Results flagged for a closer look

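Each of the 8 matched genes was searched for a rat standing apart within its group of 5, giving 16 groups of values. By Dixon's criterion the gap between an extreme rat and the next one must exceed 0.71 of the range of its group. This happened in 1 group, where chance gives about 0.8. Sham rat 2 had the highest Daglb level of the sham rats, 46.6 CPM against 38.9 to 40.6 CPM in the others, a gap of 0.761 of the range on the log2 CPM scale. Without that rat the log2 fold change of Daglb was -0.15 (SE 0.094, quasi-likelihood test, adjusted p = 0.708). Its library had the fewest aligned counts, 13552309, and the part of depth was not tested.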

How the results depend on the processing

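No paired analysis was possible because rat numbers are not repeated between the groups. Over the 8 genes, 0 had an adjusted p-value under 0.05 in each setting tried. The features at this threshold, 0 in the main test, numbered 119 with the likelihood ratio test and 33 with DESeq2, and 1 pathway gene, Ptgs2, was then called with the likelihood ratio test. Without each rat in turn the counts at the adjusted threshold remained 0 for features, members and pathway genes. The members at an unadjusted p-value under 0.05, 1 in the main test, were 0 with library size alone and with the likelihood ratio test and 2 with DESeq2 (Daglb and Abhd6), and ranged from 0 to 1 without each rat in turn. Pathway genes at that threshold, 4 in the main test, were 7 with limma-voom and ranged from 4 to 13 without each rat in turn, with 8 without stimulated rat 6 and 13 without stimulated rat 8, where all features at that threshold rose from 2214 to 3145 and 3034. The sign of Dagla turned with library size alone (0.00061) and the fits without sham rat 3 and stimulated rat 7, within a leave-one-out range of -0.068 to 0.019. That of Napepld turned in 6 fits, within a range of -0.092 to 0.12. The log2 fold change of Ptgs2 was 1.75 with limma-voom. The other 6 members kept their direction in all 19 alternatives. The cause of these differences was not tested. With 5 rats a group, intervals of the members reach from -0.46 to 0.45 on the log2 scale. In each gene but Abhd6 the interval holds 0, so a true difference within it could not be told from none. That of Abhd6, -0.46 to -0.01, leaves out 0 before adjustment over all features, and its adjusted p-value was 0.478 (quasi-likelihood test). Counting error was at most 8.23% of the mean count (Napepld), below the spread between rats.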
